A study of Mus musculus with 2 samples.

Results

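Nes, Vim, Fabp7, Slc1a3, Prom1, Ptprz1, Tnc and Hopx are genes in common use as markers of radial glia. They are 8 of the 21896 genes measured and were chosen by name, by a rule that uses no measured value. RNA came from the ventricular and subventricular zones (VZ–SVZ) cut out of the mouse cortex at E13.5 (E for embryonic day), on a C57/BL6 background. There was 1 library of Rcor2fl/fl embryos, the control, in which both alleles of Rcor2 carry loxP sites, and 1 library of Rcor2cko embryos, which are Rcor2fl/fl and carry NesCre. Rcor2 encodes a corepressor that binds the histone demethylase LSD1. In NesCre mice, Cre recombinase is made under Nestin regulatory sequences, so the deletion falls in the neural progenitors themselves and in the cells that descend from them. Both parents of these embryos were Rcor2fl/+ with NesCre, and the labels do not say whether the control embryos carry Cre. How many embryos went into each library is not given either.

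Radial glia are the neural stem cells of the embryonic cortex. Their cell bodies line the ventricle, an apical end-foot is held in the ventricular surface by junctions, and a long basal process reaches the pia and guides migrating neurons. They divide to renew themselves and to produce neurons, either directly or through intermediate progenitors. The 8 genes cover different sides of this cell. Nestin and vimentin form the intermediate filaments of the process, Fabp7 (brain lipid-binding protein) carries fatty acids, Slc1a3 (GLAST) takes up glutamate, and Prom1 (prominin 1, CD133) sits in apical membrane protrusions. Ptprz1 is a receptor tyrosine phosphatase, tenascin C (Tnc) is a protein of the extracellular matrix, and Hopx is a small homeodomain protein that does not itself bind DNA.

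The lowest of the 8 genes and the 1 with the largest change was Hopx, on chromosome 5 (mm9, chr5:77515468-77544186, minus strand, 3 exons in the longest GENCODE transcript). Its coding sequence is shown because the same 222 nt, for 73 amino acids, stand in all 3 annotated transcripts, so that the transcripts described later differ outside it. The start and stop codons are in capitals.
Hopx coding sequence: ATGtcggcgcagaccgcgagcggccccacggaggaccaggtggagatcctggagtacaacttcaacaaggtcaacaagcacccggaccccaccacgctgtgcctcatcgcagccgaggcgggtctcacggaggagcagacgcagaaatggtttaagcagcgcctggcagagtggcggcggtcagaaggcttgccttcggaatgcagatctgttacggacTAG

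Hopx and Prom1 are also the 2 genes of the 8 whose values were given for transcripts from 2 start sites. The 250 bases before each of these starts are shown because the Rcor2fl/fl levels below are given by start. The sequences are from RefSeq (GRCm38.p6), run 5′ to 3′ on the strand of the gene, and were placed in mm9 by an exact match. Capitals mark the CCAAT box (CCAAT, or ATTGG on the other strand) and the GC box (GGGCGG, or CCGCCC on the other strand). TATAAA was also searched on both strands.
Hopx upstream start, chr5:77544149-77544398: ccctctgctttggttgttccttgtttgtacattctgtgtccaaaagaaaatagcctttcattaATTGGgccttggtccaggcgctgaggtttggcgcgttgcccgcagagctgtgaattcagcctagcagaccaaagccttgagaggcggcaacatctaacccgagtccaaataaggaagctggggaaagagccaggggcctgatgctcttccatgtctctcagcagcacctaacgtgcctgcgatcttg
Hopx downstream start, chr5:77524293-77524542: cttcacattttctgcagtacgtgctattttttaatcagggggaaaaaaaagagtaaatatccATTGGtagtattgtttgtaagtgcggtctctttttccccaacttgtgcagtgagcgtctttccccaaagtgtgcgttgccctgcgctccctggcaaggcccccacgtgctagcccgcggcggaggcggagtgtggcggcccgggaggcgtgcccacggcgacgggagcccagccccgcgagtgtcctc
Prom1 upstream start, chr5:44492976-44493225: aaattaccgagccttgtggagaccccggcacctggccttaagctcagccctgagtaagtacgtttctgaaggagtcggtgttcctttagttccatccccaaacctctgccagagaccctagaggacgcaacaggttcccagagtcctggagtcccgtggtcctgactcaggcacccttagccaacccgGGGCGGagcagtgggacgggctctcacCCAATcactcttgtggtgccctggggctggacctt
Prom1 downstream start, chr5:44486008-44486257: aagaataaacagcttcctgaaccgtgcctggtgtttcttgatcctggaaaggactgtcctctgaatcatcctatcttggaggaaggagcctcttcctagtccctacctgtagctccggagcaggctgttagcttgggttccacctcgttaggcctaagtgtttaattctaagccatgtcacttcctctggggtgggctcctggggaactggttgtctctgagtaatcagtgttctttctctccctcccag

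Both Hopx sequences hold 1 CCAAT box, and they differ in their CG dinucleotides, with 8 before the upstream start and 18 before the downstream start. In Prom1 the upstream sequence holds 9 CG dinucleotides, 1 CCAAT box and 1 GC box, and the downstream sequence holds 3 CG dinucleotides and neither box. None of the 4 sequences contains TATAAA. Over 32851 promoter sequences of the same length, the median was 6 CG dinucleotides with quartiles of 2 and 16, and 33.8% held a CCAAT box, 32.7% a GC box and 12.4% TATAAA. A match is only a match of letters and does not show that a factor binds there.

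Expression is given as FPKM, fragments scaled to transcript length and to the depth of the library, with the 95% FPKM interval that the files give in brackets. For a gene with several transcripts in Rcor2fl/fl, such as Prom1 and Hopx, the interval of the gene there was combined from those of its transcripts. The steps between low FPKM values put the scaling total at 18841070 fragments for Rcor2fl/fl and at 25481460 for Rcor2cko. At this depth 3 fragments amount to 0.0882 FPKM and 0.0654 FPKM, respectively, for a transcript of 2000 nt. A change is log2 of (FPKM + 0.1) in Rcor2cko less log2 of (FPKM + 0.1) in Rcor2fl/fl, and the added 0.1 makes changes of weakly expressed genes look smaller. For 6 of the 8 genes, which have 1 transcript each, whole fragments could be recovered, and the change then has an exact 95% interval (Clopper-Pearson), which covers counting error only. With 1 library per genotype there is no replicate check and no test, and every difference is between these 2 libraries. A lower value in tissue can mean fewer cells of a type or less RNA per cell, and these cannot be told apart here.

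Rcor2 itself was at 90.6 FPKM [79.6 to 102] in Rcor2fl/fl and 55.7 FPKM [48.6 to 62.7] in Rcor2cko, with a log2 change of -0.70. It was lower in the library labelled Rcor2cko, and its reads were not absent, although a value for the whole gene does not separate the deleted exons from the rest. The libraries also differed in sex-linked genes. Xist, expressed from the inactive X chromosome, was at 177 and 0.109 FPKM, and the Y-linked Eif2s3y was listed at 0 and at 19.8 FPKM. Genotype and the sex of the embryos therefore cannot be told apart. All 8 genes are on autosomes. A gene was compared where either library reached 1 FPKM. Over the 11777 such genes the median change was -0.03, and the 5th and 95th percentiles were -0.38 and 0.47. With FPKM as deposited 57.6% of these genes were lower in Rcor2cko. This is the share to set beside the counts of higher and lower genes below.

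All 8 radial glia genes were expressed in both libraries, between 12.8 and 372 FPKM in Rcor2fl/fl and between 4.67 and 539 FPKM in Rcor2cko. These levels do not show how cleanly the VZ–SVZ was cut out. The postmitotic neuron gene Tubb3 was at 568 and 521 FPKM in the same libraries. In Rcor2fl/fl the order was Fabp7, Vim, Nes, Ptprz1, Slc1a3, Prom1, Tnc and Hopx. The FPKM intervals of the neighbours Fabp7 and Vim, Nes and Ptprz1, Prom1 and Tnc, and Tnc and Hopx overlapped there. Rcor2cko had the same order, in which only Nes and Ptprz1 had overlapping intervals. Fabp7 and Vim together made up most of the summed FPKM of the 8 genes, Fabp7 42.2% and Vim 34.9% in Rcor2fl/fl, against 53.4% and 30.0% in Rcor2cko. Hopx was the smallest part, at 1.45% and 0.462%. The 8 levels spread further apart in Rcor2cko than in the control, since the highest gene was higher and the lowest was lower.

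**Figure D1:**
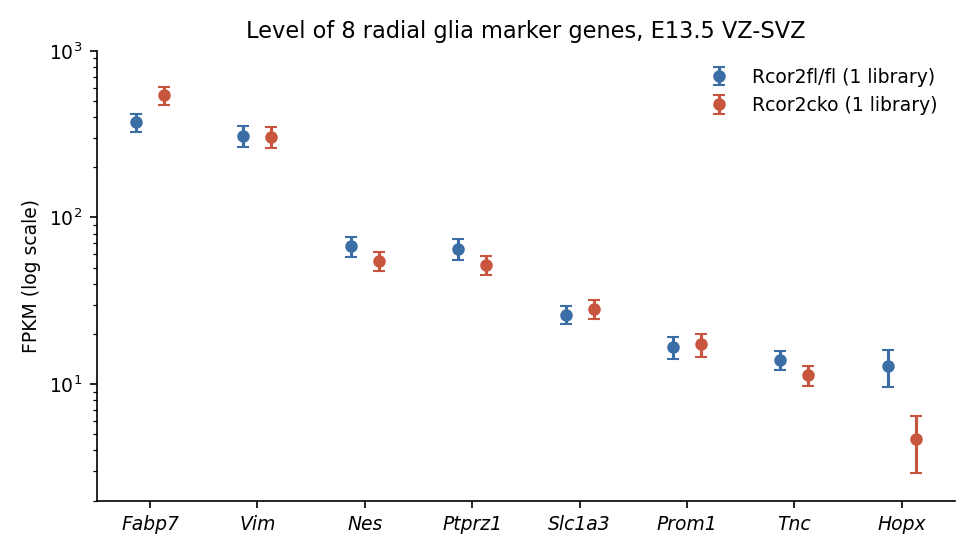
Level of each radial glia gene in FPKM (log axis) in each genotype, with bars for the 95% FPKM interval of the files. The Rcor2fl/fl bars of Prom1 and Hopx were combined from the intervals of their transcripts. Fabp7 stands higher in Rcor2cko (539 against 372 FPKM) and Hopx lower (4.67 against 12.8 FPKM), and for the other 6 genes the bars of the libraries overlap.

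As a group the 8 genes did not move one way. With FPKM as deposited, 3 were higher and 5 lower in Rcor2cko, where 57.6% of all genes compared were lower. Under each of 6 other scalings the split was 4 and 4, because Vim changed sign. The median change of the 8 was -0.16, beside -0.03 for all genes compared. Past 1.5-fold, 0 of 8 were higher, where 3.79% of all genes compared were higher by this much, and 1 of 8, Hopx, was lower, where 1.76% of all genes were lower. The FPKM intervals of the libraries did not overlap for 1 gene that was higher, Fabp7 (2.26% of all genes), and 1 that was lower, Hopx (1.21% of all genes). At a milder limit of 1.2-fold, Fabp7 was higher (10.4% of all genes) and Nes, Ptprz1, Tnc and Hopx were lower (9.98% of all genes). The summed FPKM of the 8 went from 882 to 1010, and without Fabp7 from 509 to 471, so the direction of the sum rests on that gene.

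**Figure D2:**
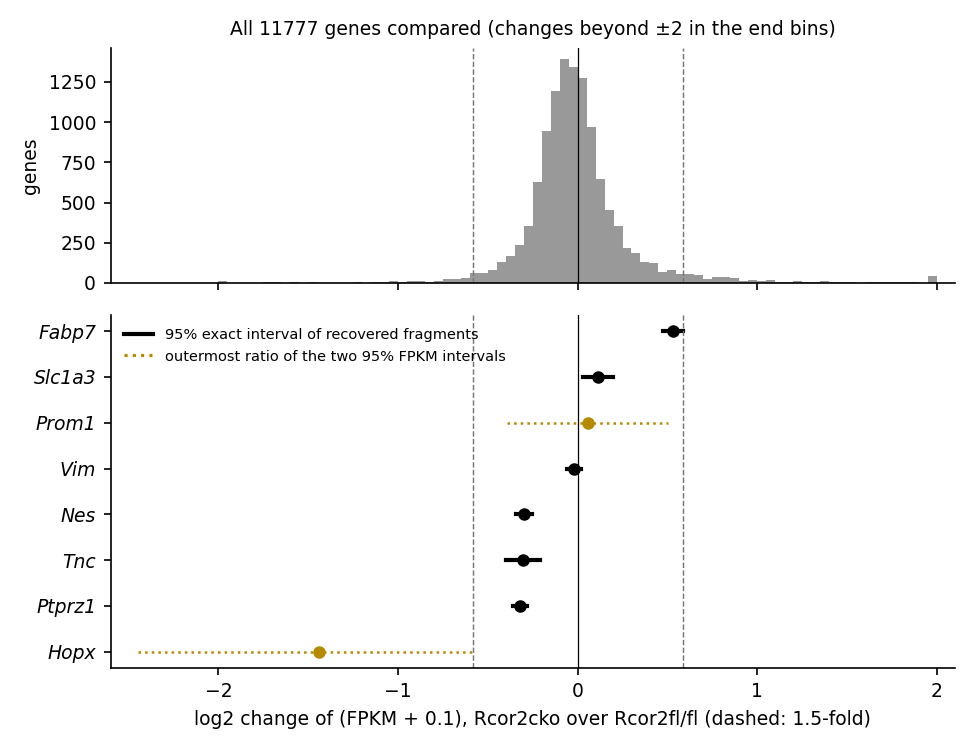
Top, number of genes at each log2 change, Rcor2cko over Rcor2fl/fl, for all 11777 genes compared, and bottom, the change of each radial glia gene on the same axis, with solid lines for the exact 95% counting interval, dotted lines for the outermost bounds of the FPKM intervals where no fragments could be recovered, and dashed lines at 1.5-fold. Hopx lies below the lower dashed line at -1.44, Fabp7 just under the upper one at 0.53, Nes, Ptprz1 and Tnc together near -0.30, and Vim near 0, where its sign depends on the scaling.

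The filament genes differed from each other. Nes (chr3:87775000-87784373, plus strand, 4 exons), the most widely used marker of neural progenitors and the gene whose regulatory sequences drive Cre in this cross, was at 67.3 FPKM [58.2 to 76.4] in Rcor2fl/fl and 54.7 FPKM [47.6 to 61.8] in Rcor2cko. These levels rest on 7521 and 8255 fragments, and the log2 change was -0.30 with a counting interval of -0.34 to -0.25. Nes was thus lower by more than counting error, while its FPKM intervals overlapped. Of 1052 genes with a mean of at least 50 FPKM, 31 had a lower change. Vim (chr2:13495554-13504453, plus strand, 9 exons) was at 308 FPKM [263 to 352] and 303 FPKM [259 to 347], from 9502 and 12603 fragments. Its log2 change of -0.02, with a counting interval of -0.06 to 0.02 and a sign that turned under all 6 other scalings, was the smallest among the 8 genes.

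Other filament genes were read beside them. Of 8 genes on this list, 4 reached 1 FPKM, 2 were higher and 2 lower, also under every scaling, and their median was 0.03. Ina (internexin, a neuronal filament) was the most abundant at 84.4 and 68.2 FPKM, a change of -0.31. Nefm, a neurofilament subunit, was at 7.48 and 5.25 FPKM (-0.50). Synm (synemin), which joins nestin and vimentin filaments, was at 0.750 and 1.19 FPKM, a change of 0.60 that went past 1.5-fold but not under every scaling, and its FPKM intervals overlapped. Gfap, the astrocyte filament, was at 0.317 and 0.0818 FPKM, too low to be compared.

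Fabp7 (chr10:57504687-57508256, plus strand, 3 exons) was the most abundant of the 8 genes and the only 1 whose FPKM interval lay wholly higher in Rcor2cko. It was at 372 FPKM [327 to 418] in Rcor2fl/fl and 539 FPKM [470 to 608] in Rcor2cko, and its rank among all 21896 genes went from 107 to 66. From 3985 and 7707 fragments, the log2 change was 0.53 with a counting interval of 0.48 to 0.59, a level 44.8% higher. This fell just short of 1.5-fold, and went past it when the libraries were scaled to housekeeping genes (0.64). Among 429 genes with a mean of at least 100 FPKM, 2 had a higher change. Relative to Vim, Fabp7 went from 1.21 to 1.78.

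Slc1a3 (chr15:8584124-8660764, minus strand), which is also used as a marker of astrocytes, was at 26.2 FPKM [22.9 to 29.5] and 28.3 FPKM [24.7 to 31.8]. From 1978 and 2886 fragments its log2 change was 0.11, with a counting interval of 0.03 to 0.20, so it was slightly higher than counting error allows and far from 1.5-fold. The glial transport, lipid-binding and metabolic genes on a list of 18 gave 16 genes to compare, of which 9 were higher and 7 lower, or 10 to 12 higher under the other scalings. Their median was 0.07. Past 1.5-fold, 3 of 16 were higher and 0 lower (3.79% and 1.76% of all genes compared), or 3 to 6 higher under the other scalings. They were Aldh1l1, a folate enzyme of astrocytes, at 0.845 and 3.55 FPKM (1.95), the metallothionein Mt3 at 46.4 and 72.2 FPKM (0.63), and Sparcl1, a secreted matrix protein, at 15.2 and 23.2 FPKM (0.61). The most abundant members stayed near or below the control. Dbi, which binds acyl-CoA, was at 319 and 317 FPKM (-0.01, positive under some scalings), and Fabp5, the fatty acid-binding protein related to Fabp7, was at 243 and 198 FPKM (-0.30).

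Prom1 (chr5:44384864-44493271, minus strand, 28 exons) was at 16.7 FPKM [14.2 to 19.2] in Rcor2fl/fl, summed over 8 transcripts, and 17.3 FPKM [14.6 to 20.1] in Rcor2cko, where only the value for the gene was given. The log2 change was 0.06. Taking only the highest transcript of Rcor2fl/fl gave 0.77, which is higher by construction because the value of Rcor2cko stays that of the whole gene. A gene on the opposite strand, Gm16401, overlaps its exons, and whether reads were counted by strand is not stated. In the control, the upstream start shown above gave 10.1 FPKM, or 60.6% of the gene, all of it from 1 transcript of 3746 nt [8.25 to 12.0]. The downstream start gave 6.58 FPKM, or 39.4%, from 4 of its 6 transcripts. Most of this came from transcripts of 3537 nt (4.17 FPKM [2.90 to 5.43]) and 2965 nt (2.07 FPKM [1.08 to 3.05]). The more used of the starts is the one whose promoter sequence holds the CCAAT and GC boxes. In Hopx, both starts hold 1 CCAAT box and no GC box, and a link between these letters and use was not tested.

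The apical junction genes that anchor the end-foot, where prominin 1 is found, were near the control too. Of 15 genes listed, 14 could be compared, 6 were higher and 8 lower, or 6 to 8 higher under the other scalings, 0 went past 1.5-fold either way, and the median was -0.03. Ctnnb1 (beta-catenin) was at 366 and 363 FPKM (-0.01, with a sign that depends on the scaling), and the small GTPase Cdc42 was at 107 and 111 FPKM (0.05). The widest changes were those of the alpha-catenin gene Ctnna1, at 35.1 and 38.4 FPKM (0.13), and of the polarity gene Crb2, at 4.70 and 3.33 FPKM (-0.49).

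Ptprz1 (chr6:22825502-23002916, plus strand, 30 exons) and Tnc (chr4:63620819-63681760, minus strand, 26 exons) encode a receptor and a matrix protein that can bind each other, and both were lower in Rcor2cko. Ptprz1 was at 64.9 FPKM [55.4 to 74.3] and 52.0 FPKM [44.9 to 59.1], from 9625 and 10418 fragments. Its log2 change was -0.32 with a counting interval of -0.36 to -0.28, and 24 of 1052 genes with a mean of at least 50 FPKM had a lower change. Tnc was at 14.0 FPKM [12.2 to 15.8] and 11.3 FPKM [9.81 to 12.8], from 1817 and 1988 fragments, with a change of -0.30 and a counting interval of -0.40 to -0.21. The FPKM intervals of both genes overlapped between the libraries. The changes of Nes, Ptprz1 and Tnc lay within each other's counting intervals. A long noncoding gene on the opposite strand, 8030451A03Rik, overlaps the exons of Tnc.

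Nes, Tnc and Ptprz1 also have the longest transcripts of the 8 genes, at 6126, 7100 and 8068 nt. Among single-transcript genes that reached 1 FPKM in each library, the median change was -0.05 over 904 genes longer than 6000 nt and -0.02 over 715 genes of at most 1000 nt. Among the 444 of these long genes with a mean of at least 10 FPKM the median was -0.06, and the 5th and 95th percentiles were -0.31 and 0.17, so that Nes and Tnc lay just inside the 5th percentile and Ptprz1, at -0.32, just outside it. The part of length in these values was not tested.

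**Figure D3:**
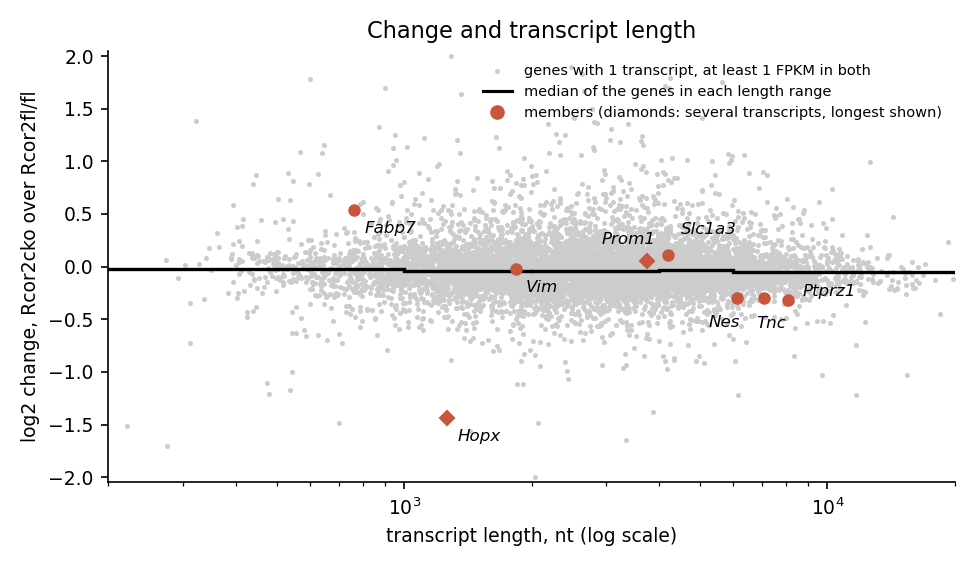
Log2 change, Rcor2cko over Rcor2fl/fl, against transcript length in nt (log axis) for single-transcript genes that reached 1 FPKM in each library (grey), with black lines for the median in each of 5 length ranges and the radial glia genes in red (diamonds for Prom1 and Hopx, which have several transcripts). The medians run from -0.05 to -0.02, and Nes, Tnc and Ptprz1 lie near -0.30 at the long end.

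Matrix genes, their receptors and the ligands of Ptprz1 made up a list of 15, of which 13 could be compared. With FPKM as deposited 4 were higher and 9 lower, but under other scalings up to 8 were higher, and the median was -0.07. Mdk (midkine), a ligand of Ptprz1, was at 156 and 145 FPKM (-0.11). The adhesion receptor Gpr56, which holds radial glial end-feet to the pial basement membrane, was at 78.1 and 69.3 FPKM (-0.17). Past 1.5-fold, 0 of 13 were higher and 1 lower (3.79% and 1.76% of all genes compared, as deposited), under every scaling. This was Bcan (brevican), a chondroitin sulphate proteoglycan that binds tenascins, at 20.2 FPKM [17.2 to 23.2] and 9.57 FPKM [7.52 to 11.6], a change of -1.07. At the other end, the integrin subunit Itgb8 was at 4.41 and 6.15 FPKM (0.47).

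Hopx had the largest change of the 8 genes. It was at 12.8 FPKM [9.64 to 16.0] in Rcor2fl/fl and 4.67 FPKM [2.93 to 6.40] in Rcor2cko, 2.71-fold lower on (FPKM + 0.1), and its rank among all genes went from 5110 to 8712. The log2 change was -1.44, and the outermost bounds of the FPKM intervals gave -2.45 to -0.59. Of the 11777 genes compared, 28 had a lower change, and of 8539 genes with a mean of at least 5 FPKM, 6 did. Relative to Vim, Hopx went from 0.0417 to 0.0154. In the control, transcripts from the downstream start made up the whole of the gene. The transcript of 1105 nt was at 11.6 FPKM [8.62 to 14.7], or 90.8%, the transcript of 1233 nt at 1.18 FPKM [0.174 to 2.18], or 9.19%, and the transcript of 1265 nt from the upstream start was listed at 0. The start in use was the one preceded by 18 CG dinucleotides, and a link between their number and use was not tested. Rcor2cko has no values by transcript, so how the starts shared its 4.67 FPKM is not known. A gene on the opposite strand overlaps the exons of Hopx.

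**Figure D4:**
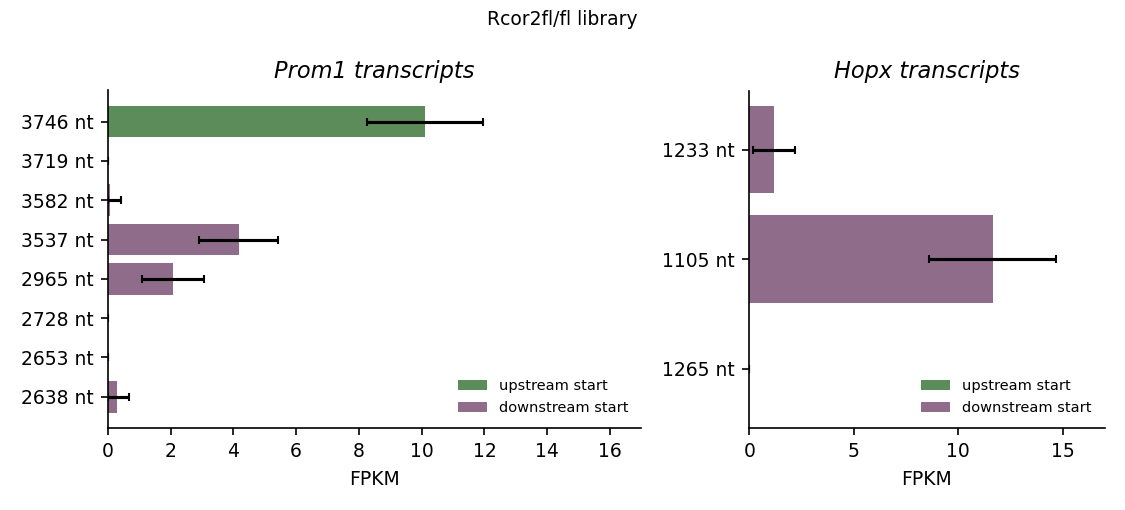
FPKM of each transcript of Prom1 and Hopx in Rcor2fl/fl, with bars for the 95% FPKM interval of the files, green for the upstream and purple for the downstream start. Prom1 was read from both starts (10.1 and 6.58 FPKM), and Hopx only from the downstream start (11.6 and 1.18 FPKM), its 1265 nt transcript being at 0.

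In the human cortex HOPX is known as a marker of outer radial glia, which have left the ventricular surface. A list of 8 other genes known from these cells was low in this mouse tissue, at no more than 6.93 and 4.14 FPKM. The list leaves out the radial glia genes themselves, so Ptprz1 and Tnc, which were higher than this, are not on it. Of 8 on the list, 5 could be compared, 2 were higher and 3 lower under every scaling, and the median was -0.16. The highest was Stat3, which carries cytokine signals, at 6.93 FPKM [5.69 to 8.17] and 4.14 FPKM [3.27 to 5.01], a change of -0.73. The cytokine receptor Il6st was at 4.85 and 3.60 FPKM (-0.42), and the integrin subunit Itgb5 at 1.56 and 2.53 FPKM (0.66). Past 1.5-fold, 1 of 5 was higher, Itgb5 (3.79% of all genes compared), and 1 lower, Stat3 (1.76%). The FPKM intervals of Itgb5 overlapped, while those of Stat3 did not.

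In the mouse, Hopx is also known from progenitors of the medial cortex, where the hippocampus forms. Genes of the cortical hem, the medial pallium and the Cajal-Retzius cells that arise there were lower in Rcor2cko. This list of 14 was put together after their values had been seen, so its counts follow in part from that choice. Of 9 that could be compared, 9 were lower and 7 of them past 1.5-fold, also under every scaling. With FPKM as deposited, 1.76% of all genes compared were lower by this much. The summed FPKM of the 14 went from 71.9 to 33.1. Reln (reelin), secreted by Cajal-Retzius cells, was at 36.5 and 15.6 FPKM (-1.22), the Wnt agonist Rspo3 at 11.8 and 6.26 FPKM (-0.90), Wnt8b at 1.35 and 0.0371 FPKM (-3.40) and Wnt5a, the least changed, at 2.86 and 2.07 FPKM (-0.45). The hem ligand Wnt3a was at 0.311 FPKM and listed at 0. Their part in the lower value of Hopx was not tested.

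Ventral telencephalic, choroid plexus and microglia genes were higher in the library in which Fabp7 was higher. The sum of the meningeal genes, most of it from Fn1, was not higher. A list of 8 ventral telencephalic and GABAergic genes was also put together after their values had been seen. Its counts, too, follow in part from that choice. It had 8 of 8 past 1.5-fold higher under every scaling, and its summed FPKM went from 17.2 to 56.6. With FPKM as deposited, 3.79% of all genes compared were higher by this much. Dlx1, a homeobox gene of ventral progenitors, was at 4.87 and 13.9 FPKM (1.49), Gad1, which makes GABA, at 4.65 and 10.7 FPKM (1.18), and Gsx2 and Isl1, listed at 0 in Rcor2fl/fl, were at 1.64 and 2.23 FPKM. Choroid plexus genes summed over a list of 7 to 1.04 and 62.0 FPKM, nearly all of it from Ttr (transthyretin), which was listed at 0 and at 57.8 FPKM. The water channel Aqp1 was at 0.352 and 1.40 FPKM (1.73), and these were the 2 genes of the list that could be compared. Of 6 microglia genes, 6 were higher with FPKM as deposited, and 5 or 6 under the other scalings, with a median of 0.49 and a summed FPKM of 15.1 and 23.0. Past 1.5-fold, 3 of 6 were higher, where 3.79% of all genes compared were. These were Csf1r (2.67 and 4.32 FPKM, 0.67), C1qa (2.21 and 4.19 FPKM, 0.89) and Tyrobp (2.43 and 5.27 FPKM, 1.09). The FPKM intervals of C1qa and of Tyrobp overlapped between the libraries, and those of Csf1r did not. C1qb was at 4.59 and 5.48 FPKM (0.25) and Aif1 at 1.32 and 1.40 FPKM (0.07). Endothelial and pericyte genes had 8 of 9 higher, or 8 to 9 under the other scalings, with a median of 0.16, a summed FPKM of 45.0 and 51.0 and 0 past 1.5-fold. Cldn5, a tight-junction gene, was at 12.4 and 12.7 FPKM (0.04), the pericyte genes Rgs5 and Pdgfrb at 9.50 and 12.8 FPKM (0.42) and 1.89 and 2.70 FPKM (0.49), and Tie1 at 3.17 and 3.12 FPKM (-0.02, with a sign that depends on the scaling). Meningeal and fibroblast genes summed to 22.5 and 21.4 FPKM, most of it from Fn1 (fibronectin), at 17.8 and 15.6 FPKM (-0.19). Of 2 that could be compared, the other was Vtn (vitronectin), at 3.58 FPKM against 2.70 in the control (0.39). Among those below 1 FPKM, Col1a1, Col1a2, Col3a1 and Lum were higher, Dcn was lower and Foxc1 slightly lower. The part of these cells in the values of Fabp7 and of the other radial glia genes was not tested.

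The genes listed as transcription factors of radial glia ranged from -0.53 to 0.29. The list also holds Zfp36l1 (-0.15), which encodes an RNA-binding protein. Of 12, 5 were higher and 7 lower, or 5 to 7 higher under the other scalings, 0 went past 1.5-fold, and the median was -0.09. Id4, an inhibitor of basic helix-loop-helix factors, was at 64.4 and 75.9 FPKM (0.24), and Tead2, which acts with the Hippo pathway, at 54.8 and 55.0 FPKM (0.00). The widest changes were in Sox1, at 12.6 and 15.5 FPKM (0.29), and in Hes1, a target of Notch signalling that keeps progenitors undifferentiated, at 12.5 FPKM [9.73 to 15.2] and 8.57 FPKM [6.40 to 10.7] (-0.53). No test of a difference between the lists was made.

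Genes of the cells that radial glia give rise to had medians of -0.13 and -0.01. Intermediate progenitor genes had 3 of 10 higher and 7 lower, or 3 to 4 higher under the other scalings, with a median of -0.13. The proneural factor Neurog2 was at 84.3 and 88.0 FPKM (0.06), Eomes (Tbr2), the defining marker of intermediate progenitors, at 80.9 and 68.1 FPKM (-0.25), and the RNA-binding protein Elavl4 at 41.0 and 48.6 FPKM (0.25). Neurod4, a basic helix-loop-helix factor, was the single gene past 1.5-fold, at 3.12 and 1.59 FPKM (-0.93). Of all genes compared, 1.76% were lower by this much. Postmitotic neuron genes had 5 of 11 higher and 6 lower, or 6 to 9 higher under the other scalings, 0 past 1.5-fold, and a median of -0.01. Tubb3, the neuronal tubulin, was at 568 and 521 FPKM (-0.12), the cortical neuron gene Neurod6 at 399 and 386 FPKM (-0.05, with a sign that depends on the scaling), and the synaptic genes Syt1 and Snap25 at 12.5 and 17.9 FPKM (0.52) and 43.5 and 33.4 FPKM (-0.38). Of 12 housekeeping genes 3 were higher and 9 lower, or 3 to 6 higher under the other scalings, with a median of -0.10. Ppia was at 1179 and 1063 FPKM (-0.15), Actb at 697 and 569 FPKM (-0.29), Gapdh at 697 and 615 FPKM (-0.18) and B2m at 10.1 and 14.8 FPKM (0.55). The changes of Nes, Ptprz1 and Tnc were of the size of that of Actb, the lowest of the 12 housekeeping genes. That of Fabp7 was of the size of that of B2m, the highest of the 12. The FPKM intervals of B2m overlapped [7.04 to 13.1 and 10.9 to 18.7], while those of Fabp7 did not.

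**Figure D5:**
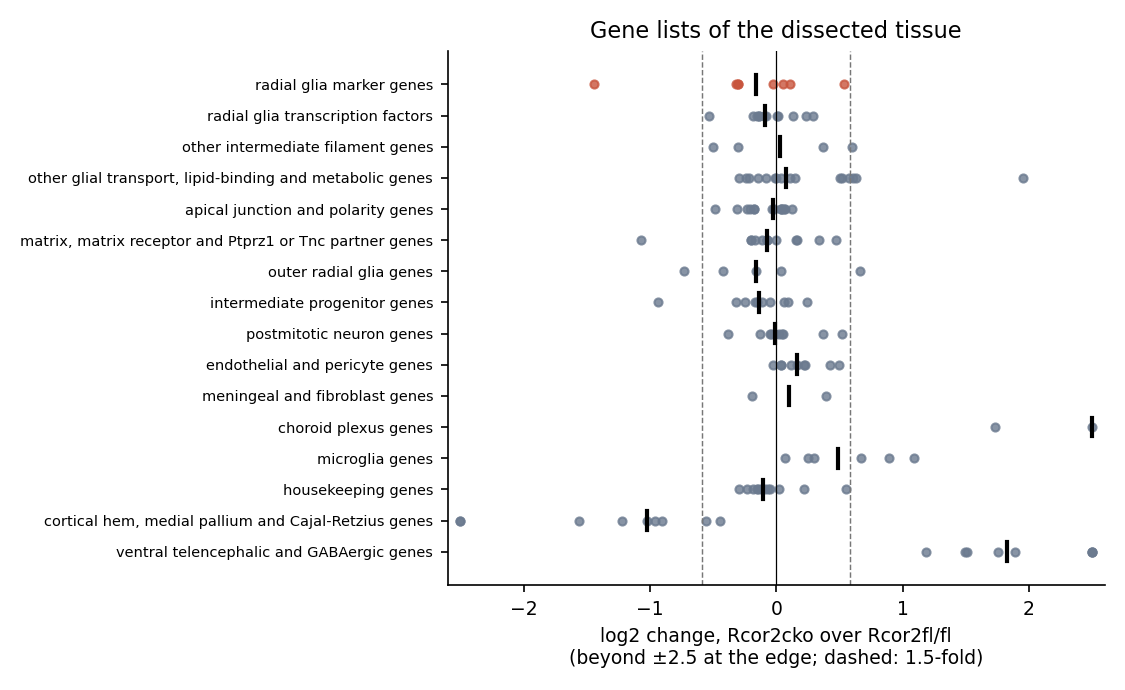
Log2 change, Rcor2cko over Rcor2fl/fl, of each gene compared, by gene list, with black lines for list medians, dashed lines at 1.5-fold and values beyond 2.5 placed at the edge. The radial glia genes (top row) span -1.44 to 0.53 around a median of -0.16, the hem, medial pallium and Cajal-Retzius genes lie on the lower side, and the ventral and choroid plexus genes, which include genes at 0 in the control, on the higher side.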

How the data were processed

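RNA-seq of the E13.5 VZ–SVZ was analysed in 2 libraries, 1 per genotype, and E15.5 was not used here. The authors extracted RNA with RNeasy columns, prepared stranded mRNA libraries and mapped reads to mm9; the submitters' processing notes name TopHat 1.3.3 and Cufflinks 1.2.0. They deposited FPKM values with 95% intervals, per RefSeq transcript for Rcor2fl/fl (27641 rows) and per gene for Rcor2cko (21896 rows), and transcript lengths.

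Rows of a gene were summed, and the half-widths of their intervals were added in quadrature. Genes that reached 1 FPKM in either library were compared on log2(FPKM + 0.1). A change past 1.5-fold was counted, with no test. FPKM times (length less an offset of 194 or 201 nt) falls on steps of 1 fragment: for single-transcript genes of 1000 nt or more, 99.3% of 4022 and 99.4% of 3963 values of up to 100 fragments were within 0.1 of a whole number. Fabp7 needed transcripts of at least 500 nt, an alternative chosen after seeing the data. The steps were first tested on simulated data. Python 3.11.15 was used with numpy 2.4.6, pandas 2.3.3, scipy 1.17.1 and matplotlib 3.10.9.

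Positions and the coding sequence are from GENCODE vM1 on NCBIM37 (mm9), counted from 1, and all 8 genes were found there and among the RefSeq promoters. Transcripts were tied to starts by the lengths of the annotated models (3 of 3 for Hopx, 4 of 8 for Prom1) and by the start site identifiers in the files.

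The genes and lists were chosen with earlier results of these data known. From each list the text names the 2 genes of highest mean FPKM, the highest and the lowest change, and every gene past 1.5-fold if there were at most 4. Gfap, Wnt3a, Gsx2, Zfp36l1, Xist, Eif2s3y and the meningeal genes below 1 FPKM were named outside this rule, after their values were seen. Map2 and Hprt1 were not used here. Alternatives were other pseudocounts, scalings, filters and fold limits, the highest transcript row, non-overlapping FPKM intervals and recovered fragments.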

Additional observations from a re-analysis of the deposited data

How the results depend on the processing

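Hopx was among the genes counted in all 16 alternatives. The count of 1 became 2 after scaling to housekeeping genes, with Fabp7, and 2 with the highest transcript row, with Prom1, where the rise follows by construction since only Rcor2fl/fl loses rows, and 5 at 1.2-fold. Its other alternatives gave 1. The median of the 8 genes was -0.056 after scaling to housekeeping genes, which moved the median of all genes compared from -0.03 to 0.07, and turned the split of all genes past 1.5-fold from 446 higher and 207 lower to 604 and 146. Vim kept its sign in 8 of 14 alternatives, reaching 0.08. The other genes kept theirs: Fabp7 0.53 to 0.64, Slc1a3 0.11 to 0.22, Prom1 0.05 to 0.77, Nes -0.30 to -0.19, Ptprz1 -0.32 to -0.21, Tnc -0.30 to -0.20 and Hopx -1.46 to -1.29. No paired analysis was possible because each genotype has 1 library, and no library could be left out for the same reason. Prom1 and Hopx have no counting interval, since their fragments could not be recovered.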
